A study of Mus musculus with 24 samples.

Results

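The miR-30 family was followed through small RNA libraries of male germ cells from mice with or without intact genes for the Argonaute proteins AGO1, AGO3 and AGO4. Its members were taken by name as the 5p and 3p strands of miR-30a to miR-30e, which gave 10 of the 1978 miRNA rows of the count table: mmu-miR-30a-5p, mmu-miR-30b-5p, mmu-miR-30c-5p, mmu-miR-30d-5p, mmu-miR-30e-5p, mmu-miR-30a-3p, mmu-miR-30b-3p, mmu-miR-30c-2-3p, mmu-miR-30d-3p and mmu-miR-30e-3p. Small RNA-seq was done on 24 libraries, 4 for each combination of 2 cell types, spermatocytes at pachytene/diplotene and round spermatids, and 3 genotypes, Ago413+/+, Ago413+/- and Ago413-/-. All libraries came from testes of males 10 to 15 weeks old on a C57BL/6J background. The Ago413 allele is a constitutive deletion, made in 129 strain cells and then backcrossed, that removes all of Ago1 and parts of Ago3 and Ago4, so that every cell of the animal carries it. Ago2 is intact in all 3 genotypes, and miRNA counts hold no reading of the deleted genes themselves. Cells of several mice were pooled and the 2 cell types were enriched on a BSA gradient, which leaves other testis cells in each fraction. In such bulk samples fewer cells of a type cannot be told apart from less RNA per cell, and the labels do not tie replicate numbers to particular animals, so that p-values measure the spread between these libraries.

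A miRNA hairpin is cut by Drosha and Dicer into a duplex, and an Argonaute protein keeps 1 of its strands and uses bases 2 to 8 of that strand, the seed, to find target mRNAs. The strand from the 5′ side of the hairpin is named 5p and that from the 3′ side 3p, and a strand that no Argonaute keeps is usually degraded quickly. The miR-30 family is expressed in most tissues and is known for repressing mRNAs such as Snai1 and Becn1 through the seed that its 5p strands share. The mature strands with an entry in RefSeq (6 of the 10 members, build GRCm38.p6) are shown because they set out which members share a seed and which can be mistaken for each other in counting. They are written 5′ to 3′ with the seed in capitals.
mmu-miR-30a-5p: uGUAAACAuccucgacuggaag
mmu-miR-30c-5p: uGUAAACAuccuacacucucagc
mmu-miR-30e-5p: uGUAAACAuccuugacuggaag
mmu-miR-30a-3p: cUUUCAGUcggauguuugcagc
mmu-miR-30e-3p: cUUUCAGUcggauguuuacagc
mmu-miR-30c-2-3p: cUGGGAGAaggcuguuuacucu
The 5p strands carry the seed GUAAACA, and miR-30b-5p and miR-30d-5p were placed with them by name. The 3p strands shown do not share that seed, since miR-30a-3p and miR-30e-3p carry UUUCAGU and miR-30c-2-3p carries UGGGAGA. miR-30b-3p and miR-30d-3p have no entry, so their seeds were not read. Counted from 1 at the 5′ end, miR-30a-5p and miR-30e-5p differ by 1 base of 22 (C13U), as do miR-30a-3p and miR-30e-3p (G18A). A read with 1 mismatch or a shortened end can therefore fit both, and the split of counts between miR-30a and miR-30e is uncertain to that extent. The strands of miR-30b and miR-30d could not be compared in this way. Whether their reads can also fit other members, and so shift their counts, was not determined. The shortest way to see the 2 strands together is the precursor, shown for the hairpin whose 3p strand changed most below, with both mature strands in capitals.
Mir30e: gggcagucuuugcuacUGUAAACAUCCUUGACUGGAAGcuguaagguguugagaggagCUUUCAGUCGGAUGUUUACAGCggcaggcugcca

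The family is made from 6 genes that lie in 3 pairs, given here on GRCm38.p6. Mir30e (chr4:120772606-120772697, minus strand) and Mir30c-1 (chr4:120769534-120769622, minus strand) sit 2983 bases apart in an intron of Nfyc, which encodes a subunit of the CCAAT-binding factor NF-Y. This pair is on the same chromosome as the deleted genes, 5.554 and 5.557 Mb from the Ago3, Ago1 and Ago4 cluster. Mir30a (chr1:23272269-23272339, plus strand) and Mir30c-2 (chr1:23291701-23291784, plus strand) are 19361 bases apart, and Mir30c-2 lies in an exon of the noncoding gene Gm27028. Mir30b (chr15:68337415-68337510, minus strand) and Mir30d (chr15:68341208-68341289, minus strand) are 3697 bases apart and overlap exons of noncoding transcripts. Mature miR-30c-5p is the product of both Mir30c-1 and Mir30c-2, so its counts cannot be assigned to a locus.

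Before the comparisons, some facts of the libraries bear on these values. Library totals ran from 182904 to 1072637 counts, and the 10 members took between 2.09% and 7.83% of them. The Ago413-/- spermatocyte libraries were the shallowest group, with a median of 262791 counts against 635808 in Ago413+/+ spermatocytes. All 10 members were above 0 in every library and passed the filter of at least 10 counts in 3 libraries. The lowest count was 2, for miR-30d-3p in an Ago413-/- spermatocyte library, against 17 for any other member. That count is under the 3 counts that a value of 0 would allow, so miR-30d-3p is not measurable there. Replicate 2 of Ago413-/- spermatocytes and replicate 4 of Ago413+/- spermatocytes stood apart by low 5p counts, and results that rest on them are given with and without them. The meiotic markers miR-34b-5p, miR-34c-5p and miR-449a-5p together gave 18752 to 186145 CPM (counts scaled to a common library size) in every library, but in Ago413+/+ 0 of 450 miRNAs separated round spermatids from spermatocytes (0%), with 10 at an unadjusted p under 0.05 by edgeR and 0 by DESeq2.

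In Ago413+/+ cells the family was dominated by 2 of its 5p strands. Values are CPM scaled with TMM factors over all 24 libraries. Mature strands are of nearly equal length, so that counts compare them without a length correction, although ligation in library preparation favours some sequences. In spermatocytes miR-30c-5p was the most abundant member at 21672 ± 3461 CPM (SD, n = 4) and miR-30d-5p came next at 17309 ± 2780. The ranges of these 2 overlapped, although miR-30c-5p was the higher of them in 4 of 4 libraries. Neighbours among the next 4 members overlapped in their ranges. These were miR-30e-3p at 4733 ± 670 CPM, miR-30a-5p at 3966 ± 804, miR-30a-3p at 3169 ± 302 and miR-30b-5p at 2882 ± 480. Below them the order was clear, with miR-30e-5p at 1488 ± 372 CPM, miR-30c-2-3p at 333.3 ± 19.1, miR-30b-3p at 141.8 ± 17.3 and miR-30d-3p at 41.7 ± 6.57. Round spermatids had the same order in their last 4 members and the same leading pair, with miR-30c-5p at 25209 ± 4181 CPM and miR-30d-5p at 19630 ± 4490. Among all miRNAs, miR-30c-5p ranked 13 and miR-30d-5p ranked 20 by mean CPM over the 24 libraries.

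**Figure D1:**
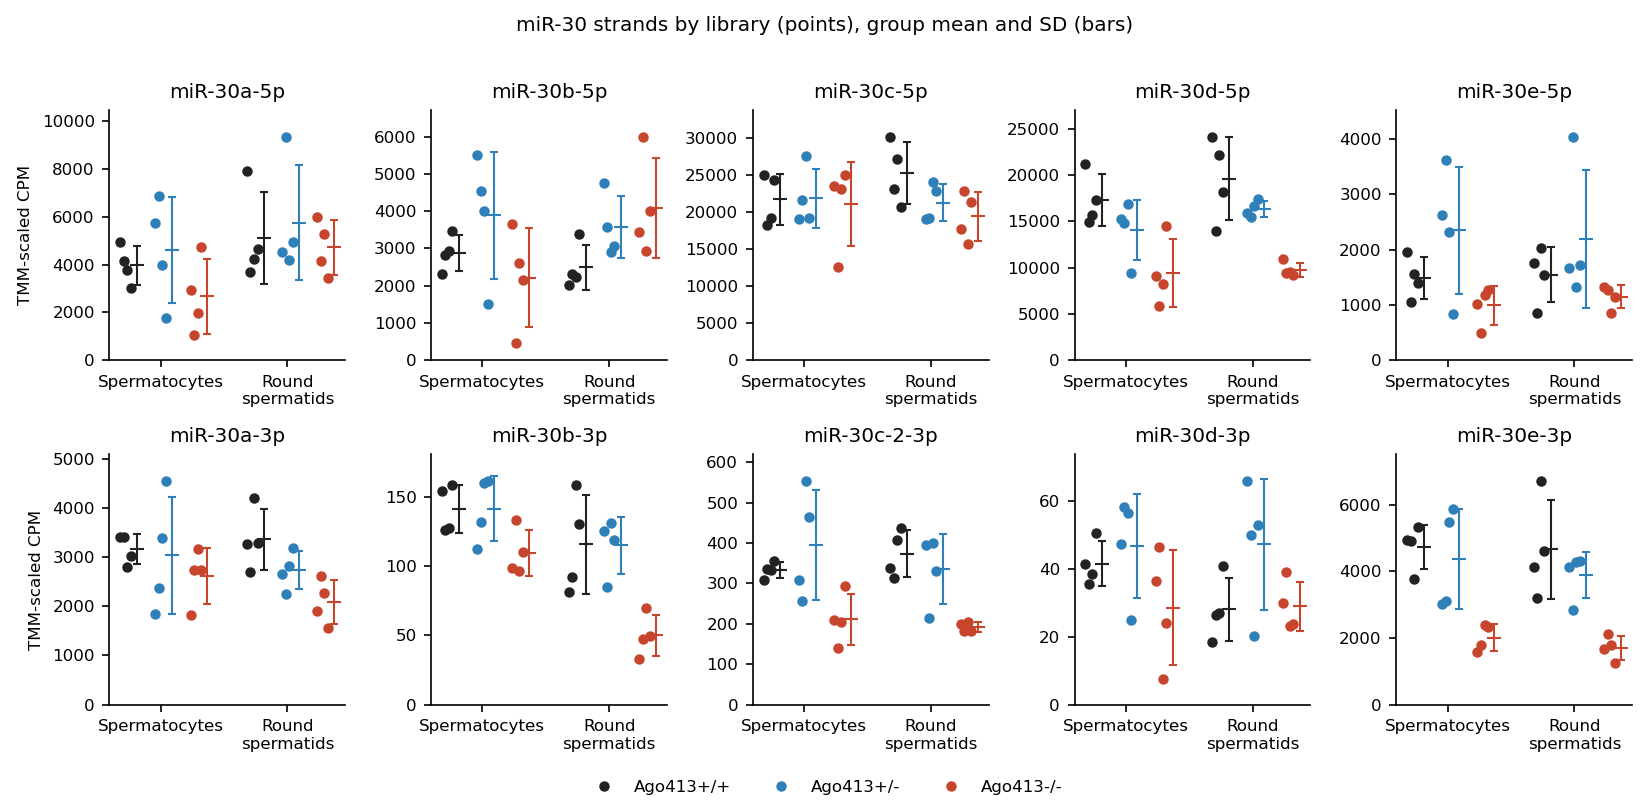
TMM-scaled CPM (linear y axes from 0, 1 scale per panel) of the 10 miR-30 strands in 24 libraries, 4 per group, with points for libraries and bars for the group mean and SD (n = 4). Every Ago413-/- point lies below every Ago413+/+ point for miR-30e-3p, miR-30d-5p and miR-30c-2-3p in both cell types, and also for miR-30a-3p and miR-30b-3p in round spermatids.

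The hairpins differed in which strand had more reads. For miR-30e the 3p strand was the more abundant, with a log2 ratio of 3p to 5p counts of 1.69 ± 0.46 (SD, n = 4) in Ago413+/+ spermatocytes and 1.61 ± 0.29 in Ago413+/+ round spermatids, above 0 in 4 of 4 libraries of each. The 2 strands of miR-30a were close to each other, at -0.31 ± 0.24 and -0.55 ± 0.53. The other 3 hairpins strongly favoured 5p, with ratios of -4.33 ± 0.29 for miR-30b, -6.01 ± 0.26 for miR-30c-5p against miR-30c-2-3p and -8.67 ± 0.24 for miR-30d in spermatocytes. As a result the 3p strands of Ago413+/+ cells came almost wholly from miR-30a and miR-30e, and the 5p strands from miR-30c (45.7% of summed 5p counts in spermatocytes, 46.9% in round spermatids) and miR-30d (36.5% and 36.1%).

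The comparison of Ago413-/- with Ago413+/+ asked whether miR-30 strands differ in level between these genotypes in each cell type. In spermatocytes miR-30e-3p fell, and no other member passed the test. All 10 fitted log2 fold changes were below 0, with a median of -0.56 beside -0.05 over all 404 miRNAs tested, and 9 of 10 were below 0 without the 2 spermatocyte libraries that stood apart. In round spermatids miR-30e-3p, miR-30b-3p, miR-30d-5p and miR-30c-2-3p fell, the first 2 with fitted log2 fold changes past -1, and miR-30b-5p rose. A miRNA was called when edgeR's quasi-likelihood test gave a Benjamini-Hochberg adjusted p under 0.05 together with a log2 fold change of at least 1 in size, and a second count used the adjusted p alone. In spermatocytes 1 of 10 members was called, where 18 of 404 miRNAs were (4.46%). In round spermatids 2 of 10 were called, where 69 of 426 miRNAs were (16.2%), so the members' share was near that of all miRNAs. By adjusted p alone 5 of 10 members passed, 4 of them lower and 1 higher, beside 101 of 426 (23.7%). The CPM of the 2 genotypes did not overlap for 3 members in spermatocytes, as for 80 of 404 miRNAs (19.8%), and for 5 members in round spermatids, as for 101 of 426 (23.7%).

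miR-30e-3p changed most in both cell types. Its levels in Ago413+/+ spermatocytes were 4930, 4907, 3770 and 5324 CPM in replicates 1 to 4, and in Ago413-/- spermatocytes 1568, 1786, 2376 and 2315 CPM. The groups did not overlap, and the Ago413-/- mean was 42.5% of the Ago413+/+ mean. The log2 fold change was -1.25 (SE 0.30, edgeR adjusted p = 0.0225). Without Ago413+/+ replicate 2, Ago413-/- replicate 1 or Ago413-/- replicate 3 it kept its size (-1.28, -1.23 and -1.32), but the adjusted p rose to 0.0540, 0.0558 and 0.0530, within a range of 3.2e-05 to 0.0558 over 17 alternatives. In round spermatids the Ago413+/+ libraries held 4130, 3196, 6707 and 4618 CPM, and the Ago413-/- libraries 1654, 2109, 1775 and 1233 CPM. These groups were also apart, with the Ago413-/- mean at 36.3% of the Ago413+/+ mean. The log2 fold change was -1.29 (SE 0.24, edgeR adjusted p = 0.00179), and the adjusted p stayed between 1.77e-06 and 0.00824 over 16 alternatives. Since miR-30a-3p differs from it by 1 base, the sum of both was also set side by side, at 7902 ± 884 CPM (SD, n = 4) in Ago413+/+ and 4627 ± 926 in Ago413-/- spermatocytes, and at 8032 ± 2102 and 3782 ± 813 in round spermatids.

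miR-30a-3p itself moved less. In round spermatids it stood at 3276, 2706, 4207 and 3288 CPM in Ago413+/+ and at 1914, 2614, 2271 and 1557 CPM in Ago413-/-, with no overlap. Its log2 fold change of -0.53 (SE 0.21) missed the threshold with an edgeR adjusted p of 0.0763, and it passed under 7 of 16 alternatives (adjusted p from 0.0141 to 0.163). In spermatocytes the value was -0.30 (SE 0.31).

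miR-30d-5p, the second most abundant member and a carrier of the GUAAACA seed, fell in round spermatids. The Ago413+/+ libraries held 24107, 13985, 22200 and 18228 CPM and the Ago413-/- libraries 10908, 9401, 9530 and 9177 CPM. All 4 Ago413-/- libraries were below the lowest Ago413+/+ library, and their mean was 49.7% of the Ago413+/+ mean. The log2 fold change was -0.86 (SE 0.19, edgeR adjusted p = 0.00571), and the test was passed under all 16 alternatives run for it (adjusted p from 7.39e-06 to 0.0160). The side of the fold limit depended on the setting, since the value was past -1 under 6 of the 16, at -1.08 with library totals, -1.07 with no filter on low counts, -1.07 with only the groups compared, -1.17 without Ago413+/+ replicate 2, -1.02 without Ago413+/+ replicate 4 and -1.03 without Ago413-/- replicate 1. In spermatocytes the levels were 21202, 14944, 15749 and 17341 CPM in Ago413+/+ and 9099, 5919, 8223 and 14489 CPM in Ago413-/-. These groups did not overlap either, but replicate 4 of Ago413-/- came close to the lowest Ago413+/+ library. The log2 fold change of -0.88 (SE 0.31) did not pass, with an edgeR adjusted p of 0.0933, and without that library it was -1.22 with an adjusted p of 0.0371, within a range of 0.0303 to 0.186 over 17 alternatives.

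Of the less abundant 3p strands of the 5p-dominated hairpins, miR-30b-3p and miR-30c-2-3p fell in round spermatids and miR-30d-3p did not pass the test. miR-30b-3p was at 81.5, 92.3, 159.2 and 130.8 CPM in Ago413+/+ and at 33.3, 47.4, 69.7 and 49.6 CPM in Ago413-/- round spermatids. Its log2 fold change was -1.03 (SE 0.30, edgeR adjusted p = 0.0193), and the adjusted p rose to 0.0533 without Ago413+/+ replicate 3 and to 0.0519 without Ago413-/- replicate 1, within 0.00504 to 0.0533 over 16 alternatives. Without Ago413-/- replicate 2 it was at -0.99, just short of the fold limit. miR-30c-2-3p was at 338.2, 312.6, 406.5 and 438.0 CPM in Ago413+/+ and within the narrow span of 181.1 to 205.4 CPM in Ago413-/-. Its log2 fold change was -0.81 (SE 0.25, edgeR adjusted p = 0.0277), and without Ago413-/- replicate 2 the adjusted p was 0.0556, in a range of 0.00258 to 0.0556. Its value was past -1 under 5 of 16 alternatives, with library totals, no filter, only the groups compared, and without Ago413+/+ replicate 1 (-1.07) or replicate 2 (-1.06). In both cases the 4 Ago413-/- libraries were below every Ago413+/+ library. In spermatocytes miR-30c-2-3p fitted at -0.66 (SE 0.34) and miR-30b-3p at -0.38 (SE 0.30), and neither passed. miR-30d-3p, the scarcest member with at least 10 counts in 17 of 24 libraries, was fitted at -0.55 (SE 0.50) in spermatocytes and 0.13 (SE 0.39) in round spermatids.

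Against Ago413+/+, miR-30b-5p was the 1 member that rose, and it did so in round spermatids. Ago413+/+ held 2031, 2314, 2239 and 3382 CPM, and Ago413-/- held 3438, 5985, 2923 and 3991 CPM. The groups overlapped, since the highest Ago413+/+ library exceeded the lowest Ago413-/- library. The log2 fold change was 0.85 (SE 0.26, edgeR adjusted p = 0.0283), and it no longer passed under 8 of 16 alternatives, with adjusted p from 0.0266 to 0.193. Among these was scaling to library totals, which gave 0.64 and an adjusted p of 0.108. Leaving out Ago413+/+ replicate 1 gave 0.53, replicate 2 gave 0.63 and replicate 3 gave 0.76, while leaving out Ago413-/- replicate 1 gave 0.80 and replicate 2 gave 0.62. Against Ago413+/- round spermatids, at 2902 to 4751 CPM, it did not pass (0.25, SE 0.26, edgeR adjusted p = 0.527). In spermatocytes miR-30b-5p was at -0.39 (SE 0.50), with 467 CPM in Ago413-/- replicate 2 against 2152 to 3648 CPM in the other 3 Ago413-/- libraries.

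Without the 2 spermatocyte libraries that stood apart, a choice made after seeing the data, miR-30e-3p remained the 1 member called in spermatocytes, at -1.18 (SE 0.27, edgeR adjusted p = 0.0132). The values of miR-30d-5p (-0.69, SE 0.23), miR-30a-5p (-0.29), miR-30e-5p (-0.35) and miR-30b-5p (-0.04) were then closer to 0, and miR-30c-5p was at 0.15. Of the other 3p strands, miR-30c-2-3p (-0.50) was also closer to 0 and miR-30a-3p (-0.30) hardly moved. miR-30b-3p (-0.46) and miR-30d-3p (-0.79) were farther from 0.

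The remaining 5p strands, miR-30a-5p, miR-30c-5p and miR-30e-5p, did not pass in either cell type. The most abundant member, miR-30c-5p, was at 25013, 18209, 19204 and 24260 CPM in Ago413+/+ spermatocytes and at 23498, 12645, 23100 and 24930 CPM in Ago413-/- spermatocytes. Replicate 2 of Ago413-/- was the only one of these 4 below the Ago413+/+ range. The log2 fold change was -0.06 (SE 0.27), and 0.12 without that library. In round spermatids miR-30c-5p was at -0.23 (SE 0.18), with Ago413+/+ libraries between 20667 and 30071 CPM and Ago413-/- libraries between 15687 and 22849 CPM. miR-30e-5p, made from the same hairpin as miR-30e-3p, was at -0.60 (SE 0.42) in spermatocytes and -0.27 (SE 0.32) in round spermatids, and its groups overlapped in both. miR-30a-5p was at -0.57 (SE 0.46) and 0.03 (SE 0.30), and the second value was below 0 under 11 of 16 alternatives.

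**Figure D2:**
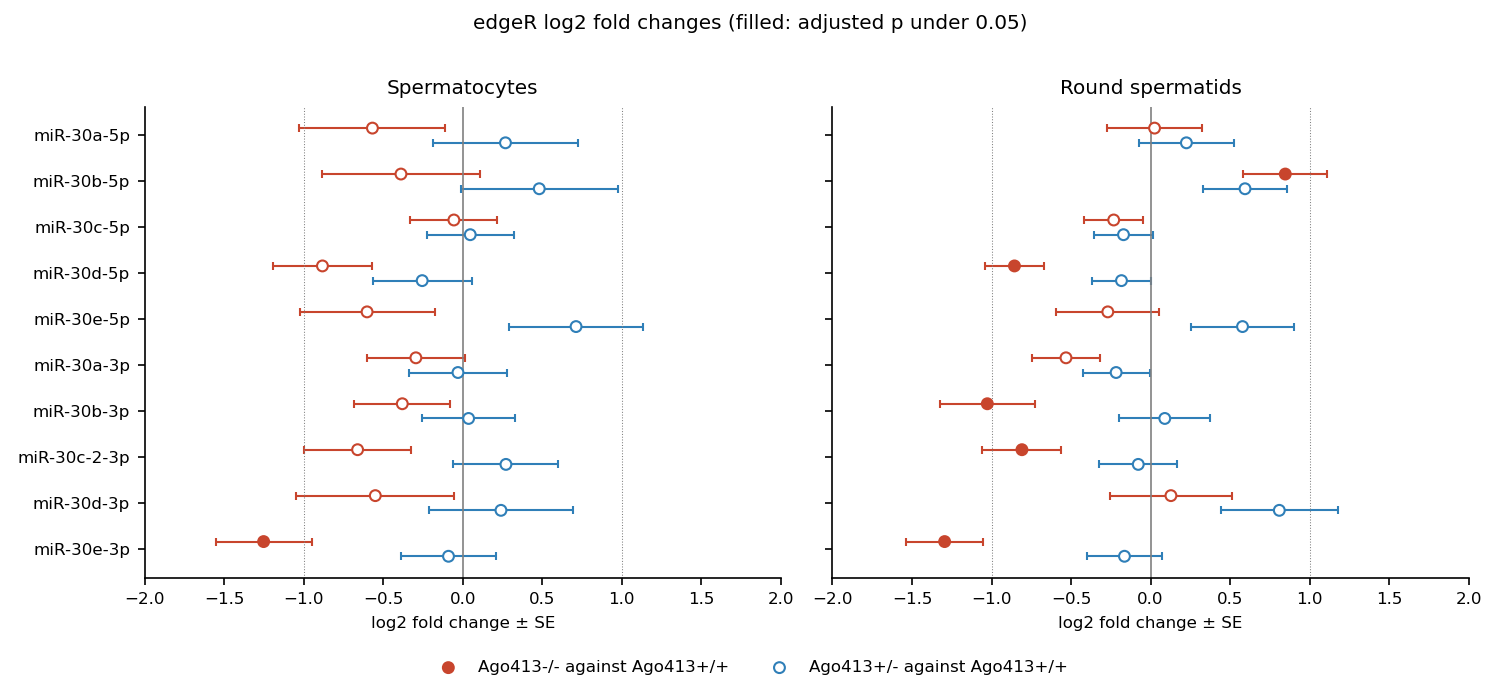
Log2 fold changes with SE from edgeR against Ago413+/+ (x axis) for the 10 members (y axis), in spermatocytes (404 miRNAs tested) and round spermatids (426), 4 libraries per group; filled symbols passed an adjusted p of 0.05 and dotted lines mark a log2 fold change of 1 in size. miR-30e-3p is the 1 filled symbol in spermatocytes, at -1.25, and 5 symbols are filled in round spermatids, all for Ago413-/-.

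In round spermatids several cell type markers also differed between Ago413-/- and Ago413+/+. Of 23 marker miRNAs 22 were tested there. By adjusted p 8 of them were higher in Ago413-/- than in Ago413+/+ and 0 lower, beside 53 higher and 48 lower among all 426 miRNAs. In spermatocytes 21 markers were tested and 0 passed by edgeR in either direction, with 2 at an unadjusted p under 0.05 and 1, which was higher, by DESeq2. Among all 404 miRNAs 5 were higher there by edgeR's adjusted p and 13 lower. The red blood cell markers miR-451a, miR-144-3p and miR-486a-5p summed to 49.2 to 501 CPM in Ago413+/+ and 103 to 4813 CPM in Ago413-/- round spermatids, and both that could be tested rose. The endothelial markers miR-126a-3p and miR-126a-5p summed to 511 to 1990 CPM and 1951 to 5858 CPM, with 1 of 2 higher. The gonadal somatic strands miR-202-5p and miR-202-3p summed to 2500 to 8176 CPM and 9034 to 15979 CPM, with 1 of 2 higher. The myeloid marker miR-223-3p was at 0 to 6.40 CPM and 8.32 to 32.3 CPM. Higher calls were also 1 of 5 epithelial, 1 of 3 undifferentiated germ cell and 1 of 3 meiotic markers, and 0 of 4 peritubular and mesenchymal markers passed. No marker was at 0 in all 4 libraries of a round spermatid group, and the part of other cells in the miR-30 values was not tested. For miR-30e-3p, at -1.25 in spermatocytes and -1.29 in round spermatids, the part of other cells was likewise not tested in either cell type. The median log2 fold change over all miRNAs in round spermatids was 0.13 with TMM factors, 0.03 with RLE factors and -0.09 with library totals, and the calls over all miRNAs were 37 lower and 32 higher with TMM but 52 lower and 16 higher with totals. Read against the median, 9 of 10 members were below it in each of these, and the sign of miR-30a-5p and of miR-30d-3p depended on the scaling.

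Counts were also summed over miRNAs with the same seed, which are expected to bind the same target sites. miR-30b-3p and miR-30d-3p had no sequence entry and were each left as a row of their own. Any seed they share with another family is therefore not counted in it. In round spermatids 3 of the 5 family rows that hold members were called, where 56 of 340 were (16.5%). By adjusted p alone 4 passed, where 68 did (20%). The UUUCAGU family, here miR-30a-3p with miR-30e-3p, fell with a log2 fold change of -1.18 (SE 0.22, edgeR adjusted p = 0.00106). The UGGGAGA family, which joins miR-30c-2-3p with miR-30c-1-3p and miR-6958-5p, fell with -1.003 (SE 0.24, edgeR adjusted p = 0.00700). That value lies at the fold limit, and it was under 1 in size in 11 of 13 alternatives, among them leaving out any 1 library other than Ago413+/+ replicate 1. Over the 13 it ran from -1.04 to -0.84, and the adjusted p passed in each (0.00470 to 0.0433). miR-30b-3p, left as a row of its own, was at -1.27 here instead of -1.03. Scaling factors were computed here on the family table, whose median was -0.12 instead of 0.13. The GUAAACA family, which joins the 5 5p strands with miR-384-5p (at most 3.18 CPM), fell by adjusted p alone, with -0.56 (SE 0.16, edgeR adjusted p = 0.0174). That call was lost under 7 of 13 alternatives (adjusted p from 0.0264 to 0.259), among them RLE factors with -0.40, and leaving out Ago413+/+ replicate 1 (-0.45), Ago413+/+ replicate 2 (-0.46), Ago413-/- replicate 1 (-0.53) or Ago413-/- replicate 3 (-0.45). In spermatocytes 0 of 5 were called by edgeR or by DESeq2, where 17 of 321 families were (5.3%) by edgeR, and 1 of the 5 had an unadjusted p under 0.05. That was UUUCAGU at -0.74 (SE 0.29, adjusted p = 0.107), while GUAAACA was at -0.33 (SE 0.29). By adjusted p alone UUUCAGU passed with DESeq2 (-0.85, adjusted p = 0.00916) and with library totals (-1.004, edgeR adjusted p = 0.0340), and in the other 11 of 13 alternatives it did not.

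The make-up of the 5p pool differed between genotypes, which is given as a description. miR-30d-5p made up 36.5% ± 1.33 (SD, n = 4) of summed 5p counts in Ago413+/+ spermatocytes and 26.0% ± 4.22 in Ago413-/- spermatocytes, and 36.1% ± 2.93 and 25.1% ± 3.13 in round spermatids. Each Ago413-/- library had a lower share than each Ago413+/+ library in both cell types. miR-30c-5p took 45.7% ± 2.25 and 58.6% ± 4.46 in spermatocytes, also without overlap, and 46.9% ± 4.14 and 49.4% ± 4.78 in round spermatids, where the groups overlapped. The share of miR-30b-5p in round spermatids was 4.80% ± 1.71 in Ago413+/+ and 10.3% ± 2.40 in Ago413-/-. Over both strands, 3p counts were 13.7% ± 2.62 of the family in Ago413+/+ and 9.40% ± 1.74 in Ago413-/- round spermatids, and these groups overlapped. In spermatocytes they were 15.2% ± 1.76 in Ago413+/+ and 12.9% ± 4.62 in Ago413-/-, also with overlap.

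**Figure D3:**
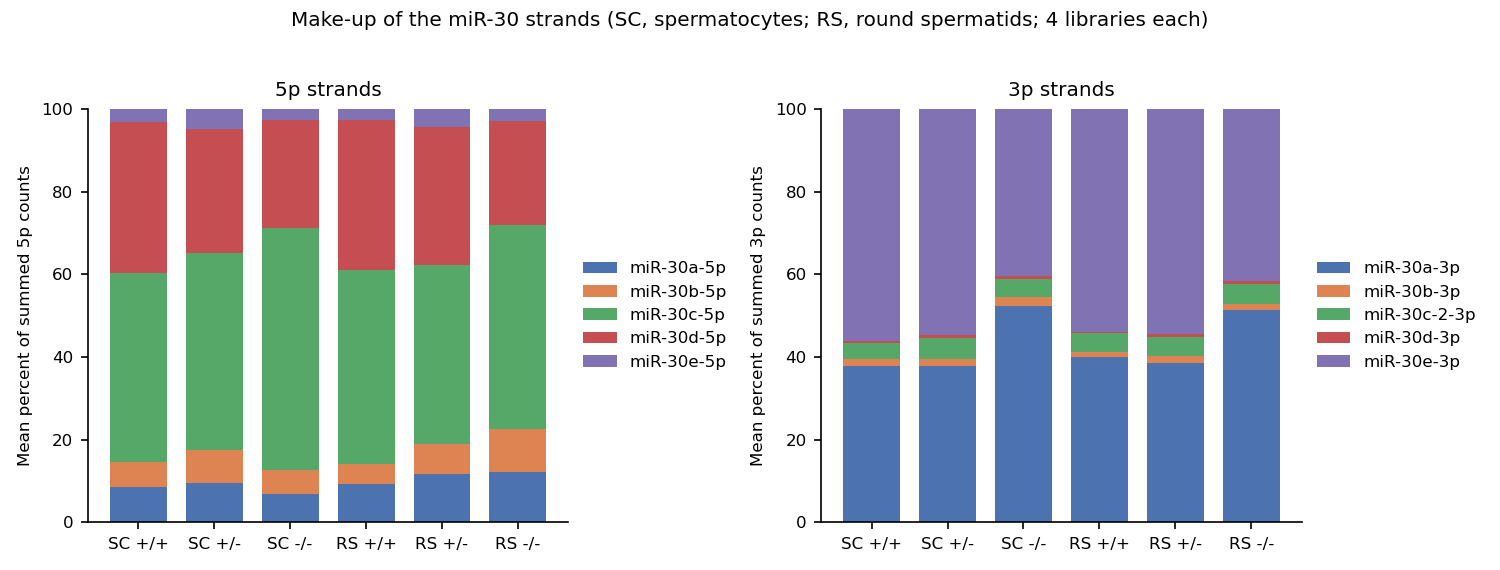
Mean percent of the summed 5p counts (left) and 3p counts (right) that each miR-30 strand made up in the 6 groups of 4 libraries, as stacked bars from 0 to 100. miR-30d-5p takes 36.5% of the 5p counts in Ago413+/+ spermatocytes and 26.0% in Ago413-/- spermatocytes, and the 3p counts come almost wholly from miR-30a-3p and miR-30e-3p in every group.

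The ratio of 3p to 5p counts within a hairpin needs no library scaling, because both strands are counted in the same library. It fell for miR-30b in Ago413-/- round spermatids and passed for no other miR-30 hairpin. In Ago413+/+ round spermatids the log2 ratios of miR-30b were -4.62, -4.64, -3.80 and -4.69, and in Ago413-/- they were -6.66, -6.94, -5.38 and -6.30, with no overlap. The difference was -1.88 (SE 0.38, limma adjusted p = 0.00682), and the adjusted p was between 0.00254 and 0.0190 over 13 alternatives. It combined the lower 3p and higher 5p level of this hairpin. In all, 16 of 121 hairpins passed in round spermatids (13.2%), and the median difference over them was -0.29. miR-30e did not pass, at -1.06 (SE 0.43, limma adjusted p = 0.117), with 1.23 to 1.90 in Ago413+/+ and 0.11 to 1.05 in Ago413-/-, which did not overlap. The share of all 121 hairpins whose ratios did not overlap was not counted. miR-30d was at 1.04 (SE 0.41, adjusted p = 0.112), miR-30a at -0.61 (SE 0.39) and miR-30c at -0.57 (SE 0.29). In spermatocytes 0 of 5 miR-30 hairpins passed by limma, none of them with an unadjusted p under 0.05, where 5 of 87 hairpins did (5.75%). There miR-30b was at 0.34 (SE 0.70), and its ratio of -1.78 in Ago413-/- replicate 2 was far above the -5.19, -4.73 and -4.25 of replicates 1, 3 and 4. Without that library the difference was -0.39, so its sign in spermatocytes rested on 1 library.

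**Figure D4:**
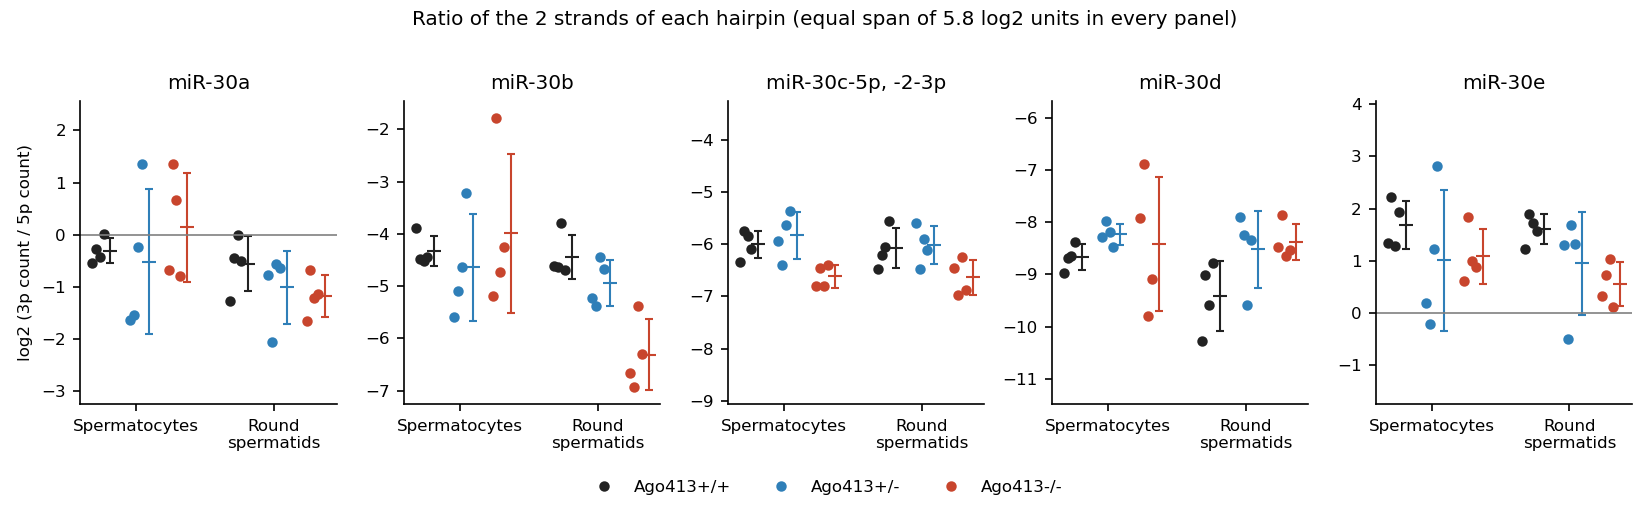
Log2 ratio of 3p to 5p counts for the 5 miR-30 hairpins in 24 libraries, with points for libraries and bars for the mean and SD of 4 libraries, on y axes of equal span. The miR-30b points of Ago413-/- round spermatids, from -6.94 to -5.38, lie below all 4 Ago413+/+ points, while Ago413-/- spermatocytes spread from -5.19 to -1.78.

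The Ago413+/- libraries were set against Ago413+/+ to look for differences with 1 copy of the allele. No member passed in either cell type. Members that did not pass may still differ by less than these libraries can show. In spermatocytes 0 of 404 miRNAs were called by edgeR (0%), with 13 at an unadjusted p under 0.05 and 0 by DESeq2, and no member was among the 13. In round spermatids 0 of 426 were called (0%), with 68 at an unadjusted p under 0.05 and 8 by DESeq2, no member among the 8. The members with an unadjusted p under 0.05 there were miR-30b-5p at 0.59 (SE 0.26, edgeR adjusted p = 0.310) and miR-30d-3p at 0.81 (SE 0.37, adjusted p = 0.310). miR-30e-3p was at -0.09 (SE 0.30) in spermatocytes and -0.16 (SE 0.24) in round spermatids, with 3008, 3122, 5469 and 5861 CPM in Ago413+/- spermatocytes and 4129, 2850, 4277 and 4310 CPM in Ago413+/- round spermatids. Each of these 8 libraries was above the highest Ago413-/- library of its cell type.

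Ago413-/- was also set against Ago413+/-, a comparison that shares its Ago413-/- libraries with the one above and is not independent of it. In round spermatids 2 of 10 members were called, where 53 of 426 miRNAs were (12.4%). miR-30e-3p was at -1.13 (SE 0.24, edgeR adjusted p = 0.00567) and miR-30b-3p at -1.12 (SE 0.30, adjusted p = 0.0198). By adjusted p alone miR-30d-5p (-0.67, SE 0.19, adjusted p = 0.0220) and miR-30c-2-3p (-0.73, SE 0.25, adjusted p = 0.0496) also passed, where 81 miRNAs did (19%). miR-30b-5p, which rose against Ago413+/+, did not pass here (0.25, SE 0.26). The miR-30c-2-3p call was lost under 9 of 13 alternatives. They included each library left out except Ago413+/- replicate 2, with values from -0.62 to -0.84, and a fit with the replicate block (-0.70, adjusted p = 0.0827, within 0.0108 to 0.132). miR-30b-3p missed without Ago413+/- replicate 1 (-1.05) or Ago413-/- replicate 1 (-1.03), and miR-30d-5p without Ago413+/- replicate 1 or Ago413-/- replicate 3 (both -0.67). In spermatocytes 0 of 10 were called by edgeR, 3 with an unadjusted p under 0.05, and 2 by DESeq2, where edgeR called 9 of 404 miRNAs (2.23%). The 3 were miR-30e-3p at -1.16 (SE 0.30, edgeR adjusted p = 0.0572), miR-30e-5p at -1.31 (SE 0.43, adjusted p = 0.0945) and miR-30c-2-3p at -0.93 (SE 0.34, adjusted p = 0.0991). Without Ago413-/- replicate 2 and Ago413+/- replicate 4 together, 1 member was called, and without Ago413+/- replicate 4 alone, 2 were.

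The cell types were also compared within each genotype. Round spermatids against spermatocytes gave 0 of 10 members in Ago413+/+ and in Ago413+/- by edgeR and by DESeq2, none with an unadjusted p under 0.05. Over all miRNAs 0 of 450 were called by edgeR in Ago413+/+ and in Ago413+/- (0%), and 0 by DESeq2 in each. At an unadjusted p under 0.05 there were 10 in Ago413+/+ and 15 in Ago413+/-. The members' share in these 2 genotypes was therefore that of all miRNAs. The members' log2 fold changes ranged from -0.52 to 0.37 in Ago413+/+ and from -0.30 to 0.32 in Ago413+/-. In Ago413-/- miR-30b-3p was lower in round spermatids, at -1.11 (SE 0.29, edgeR adjusted p = 0.0281), where 22 of 450 miRNAs were called (4.89%). That call held without spermatocyte replicate 1 or 3 but was lost without spermatocyte replicate 2 (-0.87) or 4 (-0.96) and without any 1 of the 4 round spermatid libraries (-0.95 to -1.22). It was also lost with the replicate block within genotype (adjusted p = 0.0563, within 0.00739 to 0.205 over 14 alternatives). Whether the Ago413-/- difference itself differed between cell types was tested as an interaction, which 0 of 450 miRNAs passed by edgeR (0%) and 0 by DESeq2, with 55 at an unadjusted p under 0.05. The largest interaction among members was that of miR-30b-5p, 1.09 (SE 0.58, edgeR adjusted p = 0.409), and the 1 member with an unadjusted p under 0.05 was miR-30b-3p, -0.81 (SE 0.39, adjusted p = 0.394). The differences seen in 1 cell type alone are therefore not shown to be particular to it.

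Neighbours of the Ago genes and of the family were looked at by position and by pattern. The second hairpin of the Nfyc intron leaves its own 3p strand, miR-30c-1-3p, which was scarce, with 6 to 44 counts per library. It was at 28.6 to 49.3 CPM in Ago413+/+ and 28.9 to 66.7 CPM in Ago413-/- spermatocytes, and at 15.6 to 40.2 and 15.5 to 30.7 CPM in round spermatids. These ranges overlapped, unlike those of miR-30e-3p from the same intron. Of the miRNAs whose genes lie on chromosome 4 within 10 Mb of the Ago genes, miR-700-3p and miR-30c-1-3p were the ones outside the 10 members that could be tested, and neither was called in either direction. By pattern, the 5 miRNAs outside the family nearest to miR-30e-3p over the 24 libraries were miR-743b-5p, miR-466f-3p, miR-532-5p, miR-185-5p and miR-743a-5p, with root mean square differences of centred log2 CPM of 0.36 to 0.45, beside a median of 0.90 over 205 miRNAs. For the summed 5p strands the nearest were miR-871-5p, miR-743a-3p, miR-27b-3p, miR-103-3p and miR-26a-5p, at 0.25 to 0.33 beside a median of 0.65. These distances rest on libraries that share depth and group, and are given as a description.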

How the data were processed

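Small RNA was read from 24 libraries in 6 groups of 4, made with the NEBNext Small RNA kit. The authors trimmed reads with Trim Galore and dropped very short ones, mapped them to miRBase mouse miRNAs with miRDeep2, and deposited raw counts per mature miRNA. The aligner's allowance for mismatches is not given in the sources used here. The 10 members, their lists and the named neighbours were chosen with earlier results of these data known. Rows with at least 10 counts in 3 libraries of a cell type were fitted with edgeR 4.0.16 (TMM factors, quasi-likelihood test, 3 genotypes in 1 fit of 12 libraries, or all 24 for cell types), and p-values were adjusted over all rows. Where 12 libraries were fitted, TMM factors were computed on them, while CPM used factors over 24. Strand ratios, log2((3p + 0.5)/(5p + 0.5)), were fitted with limma 3.58.1 for hairpins with at least 50 counts in every library. DESeq2 1.42.0, other scalings, filters, left-out libraries, a term for library numbers (up to 60 against 65 and above) and a replicate block were alternatives. The edgeR, DESeq2 and limma fits of Ago413-/- against Ago413+/+ within a cell type were tested on simulated data. The simulation gave every miRNA the same dispersion and held no outlying library. It therefore does not show how the fits behave with the spread of these libraries. Named besides the members were the 5 nearest patterns above a mean of 100 CPM, and miRNAs within 10 Mb of the Ago genes. Seed families used RefSeq sequences (GRCm38.p6) for 1679 of 1978 rows, and 33 rows were placed by name. Rows with neither, miR-30b-3p and miR-30d-3p among them, were left as rows of their own. No 2 replicates agreed within sampling noise (chi-square over its degrees of freedom from 22.8 to 260 over 36 pairs). The limit of 3 counts covers counting error only.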

Additional observations from a re-analysis of the deposited data

Results flagged for a closer look

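Of 90 sets of 4 values (CPM of the 10 members and log2 3p to 5p ratios of the 5 hairpins, in 6 groups), 7 had 1 library whose gap to the nearest of the others exceeded Dixon's limit for 4 values. Chance flags about 1 in 20 such sets. In Ago413+/- round spermatids 4 of these were all replicate 2, with miR-30a-5p at 9314 CPM against 4183 to 4947 CPM in the others, miR-30e-5p at 4027 against 1319 to 1719 CPM, miR-30e-3p at 2850 against 4129 to 4310 CPM, and a miR-30a ratio of -2.04 against -0.77 to -0.57. In Ago413-/- spermatocytes miR-30c-5p was at 12645 CPM in replicate 2 against 23100 to 24930 CPM in the others. The miR-30b ratio was -3.89 in replicate 1 of Ago413+/+ spermatocytes against -4.51 to -4.44, and -3.80 in replicate 3 of Ago413+/+ round spermatids against -4.69 to -4.62.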

How the results depend on the processing

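Over the alternatives, 188 of 225 recomputed counts of calls stayed within 1.5 times the reported count, and 573 of 657 single values kept their direction and their side of the threshold, while 43 no longer passed, 12 newly passed and 29 changed sign. The cause of these changes was not tested. For Ago413-/- against Ago413+/+ in round spermatids, the members called were 4 with library totals, 4 with no filter on low counts and 4 with only the groups compared. With 1 library left out at a time they numbered 1 to 4, and 3 to 5 by adjusted p alone, and in spermatocytes 0 to 2. For Ago413-/- against Ago413+/- in spermatocytes, they were 2 with DESeq2, 1 with library totals, 1 with no filter, 1 with at least 10 counts in every library, 1 without replicate 2 of Ago413-/- and replicate 4 of Ago413+/- together (chosen after seeing the data) and 0 to 2 with 1 library left out. In round spermatids that range was 1 to 2, and 1 to 4 by adjusted p alone. For round spermatids against spermatocytes in Ago413-/-, the count was 0 with no filter, 0 with at least 10 counts in every library, 0 without those 2 libraries and 0 to 1 with 1 library left out. Of the seed families in spermatocytes 1 was called with library totals, and 2 strand ratios passed in round spermatids with a pseudocount of 5.

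Values that changed sign did not pass in any setting. miR-30c-5p in spermatocytes was 0.15 without the 2 libraries and -0.20 to 0.12 with 1 left out. miR-30a-5p in round spermatids was -0.062 with DESeq2 and -0.062 with RLE factors, -0.24 with totals, -0.18 with no filter, -0.091 with at least 10 counts in every library, -0.18 with only the groups compared and -0.27 to 0.13 with 1 library left out. miR-30d-3p in round spermatids was -0.10 with totals, -0.10 with no filter, -0.086 with only the groups compared and -0.25 to 0.24 with 1 left out. As a row of its own among the seed families it was 0.043 with DESeq2, 0.045 with RLE factors and -0.27 to 0.21 with 1 left out. The strand ratios of miR-30b and miR-30d in spermatocytes were -0.39 and -0.27 without the 2 libraries, and -0.39 to 0.74 and -0.27 to 0.70 with 1 left out.

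A replicate block gave 1 member called in spermatocytes and 2 in round spermatids for Ago413-/- against Ago413+/+, as without it. Within genotype, the replicate block gave 0 for round spermatids against spermatocytes in Ago413-/-, and against Ago413+/- in round spermatids it took miR-30c-2-3p to an adjusted p of 0.0827. It changed no other call among the members. Whether the numbers pair the libraries is not settled. Deviations from the group means correlated above 0.1 in 6 of 12 same-numbered pairs of cell types, 4 of them best with their own number. These 12 correlations ran from -0.16 to 0.42, and 7 of 24 pairs of genotypes were above 0.1. Library numbers of same-numbered cell type pairs mostly follow each other, as 29 and 30 do, so shared preparations are possible. The main cell type fits treat these libraries as independent. A GC correction was not run, because 6 of 10 members had a sequence, under the share needed. Depth limited miR-30d-3p and miR-30c-1-3p.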
